A study of Mus musculus with 9 samples.

Results

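SCC1 is a line grown from 1 cell of LLC1, a mouse Lewis lung carcinoma line, and this account covers the transcripts that separated it from that parent. A gene was a member if it reached at least 1 FPKM (fragments per kilobase of gene, scaled to the depth of the library) in at least 3 of the 6 libraries of LLC1 and SCC1. Of 15768 gene symbols, 10421 were members. All lines carried the label WT with no treatment, and grew in DMEM with 10% fetal bovine serum at 37 C and 5% CO2. SCC1 and a sister subclone, SCC2, came from LLC1 by limiting dilution and were then passaged between 5 and 8 times. Each subclone is 1 clone, so a difference between SCC1 and LLC1 is one between these cells and not one of subclones in general. Each line had 3 libraries, and no label says that they came from separate cultures, so p-values measure only how these libraries vary, and that variation may be technical.

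A tumour line kept in culture is a mixture of cells that differ in copy number, in chromatin state and in the genes they express, and its RNA profile is an average over that mixture. Limiting dilution passes the population through single cells, so a subclone carries the chromosomes and the heritable on or off states of 1 founder. The comparison of a subclone with its parent therefore reads how far 1 cell's descendants sit from the population average. In bulk RNA, fewer cells with a transcript and less transcript per cell cannot be told apart.

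Depth was alike in both lines. Fragments worked back from the FPKM values summed to 17094808 to 18674391 in the LLC1 libraries and to 18263908 to 19398657 in those of SCC1. Genes above 0 numbered 14022 to 14106 in LLC1 and 13607 to 13636 in SCC1, and genes at 1 FPKM or more 10359 to 10367 and 10219 to 10228, so fewer genes were detected in each SCC1 library than in any LLC1 library. The label of a lung carcinoma was checked against markers. Keratins Krt8 (113 ± 1.14 FPKM in LLC1, 155 ± 3.26 in SCC1; mean ± SD, n = 3 each, as in all such pairs here) and Krt18 were high. Of the other carcinoma markers, Krt19 was low and not called (1.4 ± 0.143 and 1.27 ± 0.0897 FPKM). Krt7 peaked at 0.782 FPKM, Esrp1 at 0.065 and the epithelial cadherin Cdh1 at 0.0132, and Epcam and Cldn4 had no entry. Hopx, the only tested lung epithelial marker, was lower in SCC1 (3.76 ± 0.0961 to 1.45 ± 0.202 FPKM). The other 4 with an entry stayed under 1 FPKM, among them the lung lineage factor Nkx2-1, which peaked at 0.0153. All 4 endothelial and all 5 pericyte markers in the table stayed under 1 FPKM, as did both lymphocyte markers. Of 15 macrophage and leukocyte markers 9 had an entry, and Ptprc, Adgre1, Itgam, S100a9, Cd52 and Tyrobp had none. The 4 that were tested were all higher in SCC1. They were Cd68, Cd14, and Mrc1 and Ly6g, which passed the filter through SCC1 alone and so had to be higher. The 9 summed to 16.3 to 17.7 FPKM in LLC1 and 29.6 to 33.6 in SCC1. The other 5 stayed under 1 FPKM, among them Csf1r, which peaked at 0.0266, and Laptm5, which was at 0. The 3 tested fibroblast markers were all lower, with sums of 571 to 597 and 258 to 268 FPKM, nearly all of it Col3a1. What part cells of another type have in any result was not tested.

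The lines differed at most genes, mostly by small amounts. With limma and Benjamini-Hochberg adjustment over all 10421 genes, 7324 (70.3%) passed an adjusted p of 0.05, of which 4124 (39.6%) were higher in SCC1 and 3200 (30.7%) lower. Changes are given on the log2(FPKM + 1) scale, which understates those of low genes. Among the genes that passed, the median size was 0.24 and 6372 (87.0%) were under 0.5. A 2-fold change or more was found for 52 genes higher in SCC1 (0.499%) and 146 lower (1.4%), so more large changes were falls than rises. For 7541 genes (72.4%) the 3 libraries of each line did not overlap. Of the 10421 members, 250 reached 1 FPKM in libraries of 1 of the 2 lines alone, and those had to differ. Counts over gene families below therefore use the other 10171, of which 39.8% were higher and 29.8% lower with a median of 0.038. Among these, 42 were higher and 67 lower by 2-fold or more.

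**Figure D1:**
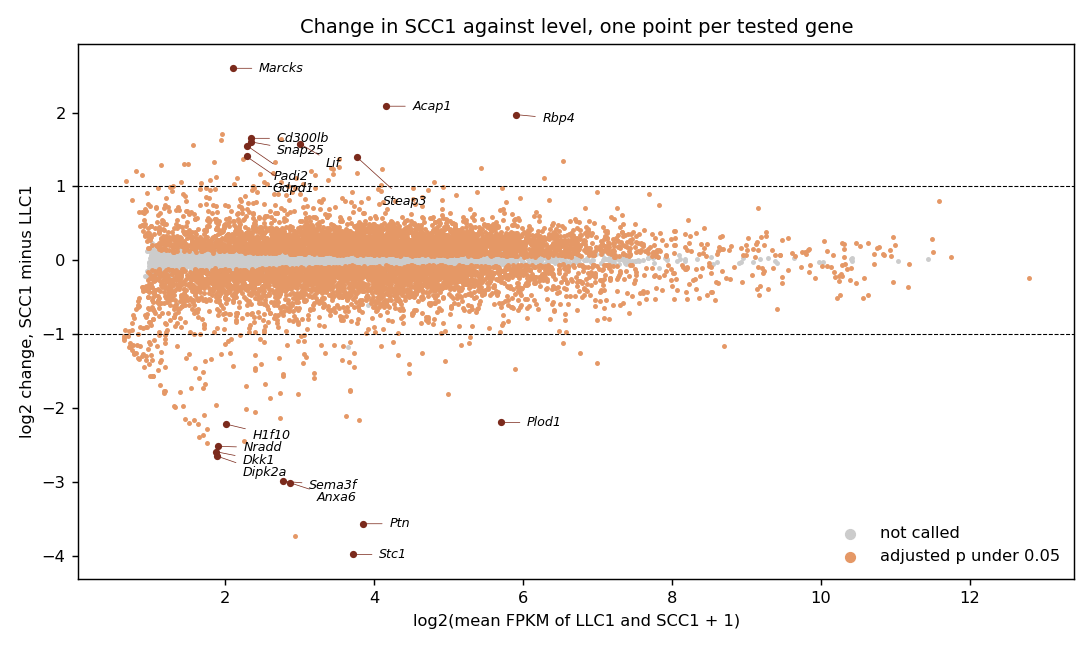
Log2 change in SCC1 against LLC1 (y axis) by mean level of both lines as log2(FPKM + 1) (x axis), one point per tested gene, orange where the adjusted p was under 0.05, with dashed lines at 2-fold. Labels mark the 9 largest falls and rises among genes outside the matrix, p53 and NRF2 lists with at least 5 FPKM in the higher line, and the points below the lower line (146 genes) outnumber those above the upper line (52).

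The largest falls outside the matrix, p53 and NRF2 lists were those of Stc1 (-3.98), which encodes the secreted hormone stanniocalcin 1 and passed the filter through LLC1 alone, and of Ptn (-3.56), which encodes the growth factor pleiotrophin. Those described next include a lactate exporter, a collagen-modifying enzyme and a linker histone. Slc16a3 encodes the monocarboxylate transporter MCT4, which exports lactate. It measured 20.8, 21.3 and 22.8 FPKM in the 3 LLC1 libraries and 3.85, 4.44 and 3.98 in those of SCC1, without overlap (log2 change -2.15, SE 0.0465, limma adjusted p = 1.03e-11). In SCC2 it stayed near the parental level, at 19.3 ± 0.445 FPKM. Plod1, a lysyl hydroxylase that modifies collagen chains, measured 86, 81.2 and 86.4 FPKM in LLC1 and 18.7, 17.2 and 17.3 in SCC1. The fall was 4.77-fold in mean FPKM (log2 change -2.19, SE 0.0356, limma adjusted p = 1.64e-12), and every SCC1 library lay far below every LLC1 library. The linker histone H1f10 went from 6.35, 4.87 and 5.72 FPKM to 0.63, 0.305 and 0.361 and was at 12.2 ± 1.26 in SCC2 (it passed the filter through LLC1 alone), so the 2 subclones lay on opposite sides of LLC1 (SCC1 minus SCC2 -3.21, limma adjusted p = 9.10e-11).

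Frzb, a secreted Frizzled-related protein that binds Wnt ligands, measured 6.49, 7.18 and 6.65 FPKM in LLC1 and 1.11, 0.849 and 0.862 in SCC1 (log2 change -2.00, SE 0.0641, limma adjusted p = 2.21e-10). Spry1, a feedback inhibitor of receptor tyrosine kinase signalling, measured 6.98, 8.1 and 8.27 and 1.91, 1.8 and 1.54 FPKM (-1.67, limma adjusted p = 1.54e-09). The libraries of the 2 lines did not overlap for either gene. Enpp2, the lysophospholipase D autotaxin, fell from 48.6 ± 0.962 to 13.2 ± 0.238 FPKM (-1.81) and was lower still in SCC2 (7.58 ± 0.297). Ece1, which processes endothelin precursors, fell from 9.21 ± 0.241 to 2.48 ± 0.31 FPKM (-1.56), and Lgals9, the sugar-binding galectin 9, from 6.69 ± 0.445 to 1.81 ± 0.109 (-1.45). Lrp5, a Wnt co-receptor, fell from 27.4 ± 0.584 to 10.6 ± 0.209 FPKM (-1.28), and Wnt7b, a Wnt ligand, rose from 15.6 ± 0.411 to 28.5 ± 0.677 (0.83).

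The stress-response regulator Nupr1 measured 18.9, 18.8 and 18.6 FPKM in LLC1, 5.1, 5.42 and 4.11 in SCC1 and 30.6, 30.9 and 28.5 in SCC2. The 3 lines were fully separated, with SCC1 lowest and SCC2 highest (SCC1 against LLC1 -1.76, limma adjusted p = 1.07e-09). Ranbp3l (7.46 ± 0.427 to 1.04 ± 0.0685 FPKM), the vinexin gene Sorbs3, a cytoskeletal adaptor (11.2 ± 0.347 to 2.49 ± 0.169), and Tmem200b (12.8 ± 0.543 to 3.56 ± 0.207) fell in SCC1 (log2 changes -2.05, -1.81 and -1.60), while SCC2 lay much nearer to LLC1 (8.95 ± 0.2, 9.87 ± 0.468 and 12.1 ± 0.045 FPKM). Glipr2 (9.78 ± 0.528 to 1.46 ± 0.186 FPKM), the retinoic acid binding protein Crabp1 (6.42 ± 0.769 to 1.29 ± 0.126), the intermediate filament nestin, Nes (18.5 ± 0.3 to 6.16 ± 0.111), and Trp53i11 (6.8 ± 0.346 to 1.79 ± 0.229) were lower in SCC2 than in SCC1, at 0.26 ± 0.0807, 0.721 ± 0.247, 2.78 ± 0.0404 and 1.31 ± 0.0672 FPKM (SCC1 minus SCC2 0.97, 0.42, 0.92 and 0.27, limma adjusted p = 8.23e-08, 0.00201, 2.29e-10 and 0.00199). SCC1 and SCC2 differed at 76.3% of tested genes by the same threshold.

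Fewer genes rose by as much. The largest rises outside the same lists were those of Marcks (2.60), which passed the filter through SCC1 alone, Acap1 (2.09) and Rbp4 (1.97). Those described next include an iron reductase, a guidance protein of axons, a leukocyte-type receptor and a lineage transcription factor. Steap3 encodes a ferrireductase of endosomes. It measured 6.71, 6.46 and 6.34 FPKM in LLC1 and 18.1, 18.9 and 19.3 in SCC1, without overlap (log2 change 1.40, SE 0.0361, limma adjusted p = 3.94e-11). Crmp1, a phosphoprotein of axon guidance, measured 5.64, 4.9 and 5.73 FPKM in LLC1, 14.9, 15.6 and 16 in SCC1 and 0.659, 0.733 and 0.52 in SCC2. SCC1 was thus the highest line and SCC2 the lowest, with LLC1 between them (1.37 against LLC1, limma adjusted p = 3.87e-09).

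Sox9, a transcription factor of chondrocytes and of epithelial progenitors, measured 9.15, 9.13 and 9.54 FPKM in LLC1 and 23, 23 and 23.6 in SCC1 (log2 change 1.24, SE 0.0309, limma adjusted p = 3.19e-11). The libraries did not overlap, and SCC2 lay below both at 7.42 ± 0.166. Sox4, chosen after its values were seen, also rose, from 10.2 ± 0.339 to 20.8 ± 0.499 FPKM (0.96), against 5.53 ± 0.141 in SCC2. Of the other 2 tested Sox genes, Sox13 rose from 0.715 ± 0.071 to 2.56 ± 0.0719 FPKM (1.05), having passed the filter through SCC1 alone, and Sox12 from 12 ± 0.448 to 13.2 ± 0.701 (0.13, limma adjusted p = 0.0188), a call that was lost with chromosome medians removed (limma adjusted p = 0.595).

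The surface receptor Ly9, of the SLAM family of leukocytes, measured 2.25, 2.73 and 2.22 FPKM in LLC1, 6.66, 6.56 and 6.72 in SCC1 and 0.0442, 0.0429 and 0 in SCC2. It was therefore nearly absent from SCC2 and 2.77-fold above the parent in SCC1 (log2 change 1.17, limma adjusted p = 8.27e-09). Bhlhb9 had the same order, at 1.81 ± 0.11, 5.07 ± 0.213 and 0.0303 ± 0.0148 FPKM, and so did Renbp, a renin-binding protein with N-acetylglucosamine epimerase activity, at 4.37 ± 0.591, 11.4 ± 1.23 and 0.688 ± 0.128. The selenium transport protein Selenop rose from 5.34 ± 0.329 to 14.1 ± 1.03 FPKM (1.25) and measured 1.18 ± 0.166 in SCC2. The irritant-gated cation channel Trpa1 rose from 5.76 ± 0.284 to 15.2 ± 0.378 FPKM (1.26), and the MAP kinase phosphatase Dusp9, high in all lines, from 48.2 ± 1.41 to 105 ± 0.308 (1.11). Ggt1, which starts the breakdown of extracellular glutathione, rose from 5.49 ± 0.275 to 14.4 ± 0.664 FPKM (1.24) and the lymphatic growth regulator Ccbe1 from 5.68 ± 0.184 to 13.2 ± 0.441 (1.08). Of the leukocyte markers given above, Cd68 and Cd14 also rose, as did Mrc1 and Ly6g, which had to. Their part was not tested.

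With the matrix, p53 and NRF2 lists left out, the largest differences in FPKM included those of abundant transcripts. Elongation factor Eef1a1 measured 7710.2 ± 66.9 FPKM in LLC1 and 6543 ± 47.3 in SCC1 (log2 change -0.24), and the glycolytic enolase Eno1 1843 ± 3.65 and 1328 ± 7.12 (-0.47). The galectin Lgals1 rose from 2609 ± 93.2 to 3178 ± 103 FPKM (0.28), and the cyclophilin Ppia from 1785 ± 47.8 to 2232 ± 59.1 (0.32). With quantile normalization the change of Eef1a1 was 0, as that method gives the top-ranked gene one value in every library.

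A group of genes expressed in LLC1 was silent in SCC1. With a mean of at least 2 FPKM in one line and at most 0.1 FPKM in every library of the other, 16 genes were silent in SCC1 and 0 in LLC1, of 9559 and 9467 genes that reached that mean. At a mean of at least 1 FPKM the counts were 41 and 2 (Ly6g and Slitrk5), and at 5 FPKM 2 and 0. Since the rule used these values, the levels that follow are descriptions. The 16 were Basp1, Cadm1, Cd34, Chst2, Dipk2a, Dkk1, Galnt15, Hoxb9, Jam3, Lurap1l, Mgp, Ncam1, Peg3, Rgl3, Sesn3 and Tpbg. They include cell adhesion molecules of the immunoglobulin superfamily (Cadm1, Jam3 and Ncam1), the sialomucin Cd34, the trophoblast glycoprotein Tpbg, the imprinted zinc finger gene Peg3, the calcification inhibitor Mgp and the stress-induced sestrin Sesn3. Of the 16, 8 lie on chromosome 9, which holds 580 of the 10421 tested genes, and the other 8 lie on 8 different chromosomes.

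Fragment counts show how near to 0 these levels were. Cd34 had 215, 231 and 184 fragments in the LLC1 libraries and 4, 3 and 2 in those of SCC1. Peg3 had 662, 717 and 602 against 4, 4 and 3, and Dipk2a 397, 397 and 353 against 0, 2 and 2. The most fragments were left in Cadm1, with 943, 905 and 859 against 15, 12 and 10, and in Ncam1, with 450, 467 and 390 against 6, 7 and 7. Mgp and Rgl3 had 141 and 458 fragments over the 3 LLC1 libraries and 0 in each SCC1 library, which allows up to 3 fragments a library by counting error alone. In SCC2, Dkk1, Galnt15 and Basp1 were expressed, and the other 13 of the 16 were at 0.223 FPKM or less in every library. Dkk1, a secreted Wnt antagonist, measured 5.62, 5.19 and 5.08 FPKM in LLC1, 0.0688, 0.048 and 0.0244 in SCC1 and 21.3, 21.7 and 21.2 in SCC2. Galnt15, which starts mucin-type sugar chains, measured 1.91, 1.99 and 1.64 FPKM in SCC2 against 2.53, 2.53 and 2.5 in LLC1, and Basp1, a neuronal membrane protein, 0.953, 1.96 and 1.11 against 2.19, 2.08 and 2.65. Just outside the limit were Iqgap2, Cthrc1 and Nradd, whose highest SCC1 libraries held 0.128, 0.141 and 0.141 FPKM. In the other direction the nearest gene was Marcks, with 0.25 FPKM in its highest LLC1 library.

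**Figure D2:**
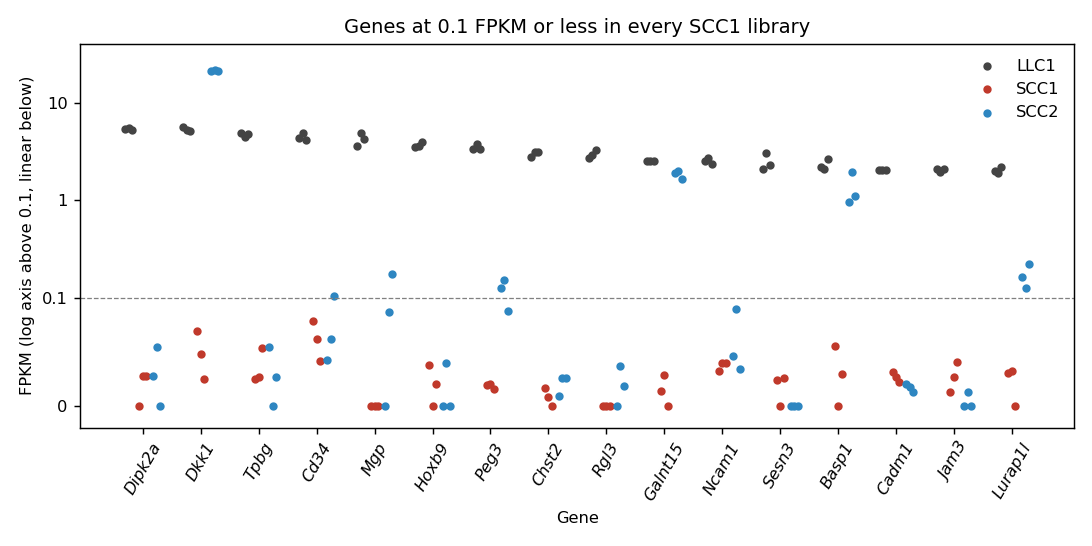
FPKM of the 16 genes silent in SCC1 (y axis, logarithmic above 0.1 and linear below), one point per library of LLC1, SCC1 and SCC2 for each gene on the x axis, with a dashed line at 0.1 FPKM. All SCC1 points lie at or under the line, and in SCC2 Dkk1, Galnt15 and Basp1 lie far above it.

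Promoters of 11 of these 16 genes were in the RefSeq table (GRCm38.p6). Since many vertebrate promoters are rich in the dinucleotide CG, the base pair at which DNA methylation is placed, CG was counted on the 250 bases before each start (its complement is again CG, so both strands give one count). The median was 12 in the silent genes, with a range of 4 to 38, against 18 over the 8448 tested genes with an entry. At least 10 CG were held by 6 of the 11 (54.5%), by 83.0% of the tested genes and by 40.2% of all 27025 promoters of the table, so the silent genes had promoters of both kinds. For the 25 largest rises the median was 10 over 15 matched genes, and for the 25 largest falls 18 over 19. DNA methylation was not measured here. The silent genes with fewer than 10 CG were Lurap1l (4), Cd34 (6), Dkk1 (6), Galnt15 (8) and Peg3 (8). Their windows overlap the annotated transcript and are not shown. The promoters below lie outside it and all hold at least 10 CG. They run from Rgl3, with 12 CG and no fragment in SCC1, to Basp1 with 30 and Dipk2a with 38. Each is 250 bases, 5′ to 3′ along the gene, with every CG in capitals.
Rgl3, chr9:21989454-21989703, minus strand: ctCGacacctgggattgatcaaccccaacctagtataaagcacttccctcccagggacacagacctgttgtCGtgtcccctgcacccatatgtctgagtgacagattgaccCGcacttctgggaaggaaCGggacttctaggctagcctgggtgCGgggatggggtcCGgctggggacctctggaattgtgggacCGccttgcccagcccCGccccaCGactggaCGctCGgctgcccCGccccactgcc
Basp1, chr15:25413765-25414014, minus strand: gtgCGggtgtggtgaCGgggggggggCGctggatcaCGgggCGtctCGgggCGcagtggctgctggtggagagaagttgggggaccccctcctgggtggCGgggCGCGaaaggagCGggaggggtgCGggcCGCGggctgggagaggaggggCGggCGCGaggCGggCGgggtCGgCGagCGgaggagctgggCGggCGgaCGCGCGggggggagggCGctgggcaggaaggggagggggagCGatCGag
Dipk2a, chr9:94538082-94538331, minus strand: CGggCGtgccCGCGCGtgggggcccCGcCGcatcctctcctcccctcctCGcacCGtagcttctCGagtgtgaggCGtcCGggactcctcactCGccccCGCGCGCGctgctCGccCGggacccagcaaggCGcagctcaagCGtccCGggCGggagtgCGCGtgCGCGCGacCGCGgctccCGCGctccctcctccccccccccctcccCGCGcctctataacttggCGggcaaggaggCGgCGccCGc

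Families were described by counts and medians, without a test of the family. Of 87 families and lists with at least 5 tested members, those that follow were chosen after their values were seen. The Hox genes, homeobox factors arranged in clusters that record position along the body axis, were lower as a group. Of 15 tested members expressed in both lines 0 were higher and 13 lower, with a median of -0.40. In cluster A on chromosome 6 all 7 tested members were lower, in cluster D on chromosome 2 all 5, and in cluster B on chromosome 11 5 of 7, where Hoxa3, Hoxb3, Hoxb6 and Hoxb9 had passed the filter through LLC1 alone. Hoxa5 measured 9.09, 9.96 and 9.93 FPKM in LLC1 and 3.76, 3.82 and 4.52 in SCC1, without overlap (log2 change -1.09, SE 0.0583, limma adjusted p = 1.58e-08), and 7.73 ± 0.305 in SCC2. Neighbouring genes of cluster B parted. Hoxb9 fell from 3.47, 3.6 and 3.98 FPKM to 0.0381, 0 and 0.0203, whereas Hoxb7 measured 2.85, 3.46 and 3.25 and 2.98, 2.79 and 3.24 (limma adjusted p = 0.474) and Hoxb8 1.89, 1.61 and 1.86 and 1.33, 1.63 and 1.65 (limma adjusted p = 0.0811). The libraries of Hoxb7 and Hoxb8 overlapped. The largest change in cluster D was that of Hoxd3 (4.69 ± 0.38 to 2.97 ± 0.205 FPKM, -0.52). Chromosomes 6 and 11 as a whole were higher in SCC1, so removing chromosome medians moved the Hox genes there further down. Under that setting all 19 tested Hox genes were lower (median -0.57), beside 30.7% of all genes. These 19 include the 4 that passed the filter through LLC1 alone and had to be lower. Hox genes overlap antisense transcripts. No source used here says if counting was by strand, so their fragments cannot be assigned to one strand with certainty.

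The gp130 cytokines, of the interleukin 6 family, bind a specific receptor that pairs with gp130, and Jak kinases then activate Stat3. Of 17 members of the list expressed in both lines 4 were higher and 10 lower (median -0.18), beside 39.8% higher and 29.8% lower over all genes. Among ligands, Lif measured 3.23, 2.74 and 3.06 FPKM in LLC1, 10.9, 11.2 and 10.8 in SCC1 and 1.63, 2.02 and 1.87 in SCC2. The SCC1 libraries were 3.64-fold above LLC1 in mean and did not overlap with either line. Among receptors, gp130 itself, Il6st, measured 30.8, 30.7 and 30.6 FPKM in LLC1, 16.6, 16.5 and 16.6 in SCC1 and 31.5, 30.4 and 31.3 in SCC2, so SCC1 lay far below both other lines (log2 change -0.85, SE 0.0235, limma adjusted p = 6.87e-11). The oncostatin M receptor Osmr measured 1.68, 1.78 and 2.05 and 0.0508, 0.0957 and 0.0755 FPKM, and the interleukin 11 receptor Il11ra1 4.01, 3.37 and 4.08 and 0.657, 0.852 and 0.558. Neither receptor reached 1 FPKM in any SCC1 library, so both passed the filter through LLC1 alone and had to differ. Downstream, the kinase Jak1 fell from 65.5 ± 1.21 to 39 ± 1.01 FPKM (-0.73), the transcription factor Stat3 from 21.5 ± 0.732 to 15.8 ± 0.768 (-0.43) and Socs3, the feedback inhibitor that Stat3 induces, from 29.9 ± 1.41 to 17.9 ± 1.01 (-0.71). The other higher members were Il11, Il6ra and Bcl3, of which Il6ra rose from 7.48 ± 0.105 to 8.16 ± 0.31 FPKM (0.11, limma adjusted p = 0.0356). Jak1 and Il11ra1 lie on chromosome 4, which was lower as a whole. With its chromosome median removed the change of Jak1 was -0.40 (limma adjusted p = 4.39e-08).

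S100 genes, which encode small calcium-binding proteins, were mostly lower. Of 9 genes that matched the symbol pattern 0 were higher and 8 lower (median -0.33), and the ninth, S100a3, did not pass. S100a6 measured 1777, 1792 and 1754 FPKM in LLC1 and 1232, 1245 and 1274 in SCC1 (log2 change -0.50, SE 0.0169, limma adjusted p = 3.24e-10). S100a10 measured 433 ± 2.62 and 350.0 ± 4.13 FPKM (-0.31) and S100a11 712 ± 15.6 and 543 ± 10.2 (-0.39). All 3 were separated without overlap, and in SCC2 S100a10 was above LLC1, at 490.4 ± 3.01. All but S100pbp, which encodes a binding partner and not an S100 protein, lie on chromosome 3, whose median change was 0.011.

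Several families that act at the cell surface had more lower than higher members. Of 12 ADAM and ADAMTS proteases, which shed or cut surface and matrix proteins, 1 was higher and 9 lower (median -0.29). Adamts1 measured 6.77, 6.05 and 6.56 FPKM in LLC1 and 2.06, 2.12 and 2.06 in SCC1, a clear gap (log2 change -1.28, limma adjusted p = 7.40e-10), and the sheddase Adam9 went from 47.3 ± 0.322 to 33.2 ± 0.611 (-0.50) while SCC2 kept 47.4 ± 0.823. Of 7 receptor-type tyrosine phosphatases 1 was higher and 5 lower (median -0.16), and an eighth, Ptprk, which passed through LLC1 alone, went from 1.15, 1.01 and 1.08 FPKM to 0.00733, 0.0384 and 0.0156 while SCC2 held 2.51 ± 0.202. Of 17 semaphorins and their plexin and neuropilin receptors, which guide migrating cells and axons, 6 were higher and 10 lower (median -0.22). The receptor Nrp2 measured 34.2, 33.6 and 35.1 FPKM in LLC1, 13.6, 14.2 and 13.6 in SCC1 and 42.8, 42.4 and 42.4 in SCC2. SCC1 was the low line and SCC2 the high one (SCC1 against LLC1 -1.25, limma adjusted p = 8.82e-12). All 5 plexins among the higher members, Plxna1, Plxna3, Plxna4, Plxnb2 and Plxnd1, are receptors, and Plxna4 rose most, from 2.42 ± 0.0639 to 4.69 ± 0.0411 FPKM (0.73). Netrin 1, Ntn1, another guidance cue, measured 47.9, 48.1 and 49.7 FPKM in LLC1 and 22, 21.1 and 21.5 in SCC1, without overlap (-1.14, limma adjusted p = 1.01e-11), and 57.3 ± 0.805 in SCC2.

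Of 19 heterotrimeric G protein subunits 2 were higher (Gna13 and Gnas) and 9 lower (median -0.14), among them Gnai2 (305 ± 8.55 to 231 ± 2.67 FPKM, -0.40) and Gnb1 (133 ± 2.08 to 105 ± 0.952, -0.33). Of 13 tetraspanins, organisers of membrane domains, 2 were higher and 9 lower (median -0.17). The higher ones were Cd82 (12.6 ± 0.494 to 17.1 ± 1.06 FPKM) and Tspan6 (2.23 ± 0.212 to 3.78 ± 0.421). Tspan8, which passed through SCC1 alone, measured 0.685, 0.91 and 0.873 FPKM in LLC1, 5.36, 4.98 and 4.52 in SCC1 and 0.0885, 0.114 and 0 in SCC2, so every SCC1 library lay above every library of the other two lines.

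Actin filament regulators were split, with 19 higher and 24 lower of 54 (median -0.035). The membrane-actin linker ezrin, Ezr, measured 85.7, 86.7 and 83.2 FPKM in LLC1 and 140.0, 141 and 139.6 in SCC1 (log2 change 0.71, limma adjusted p = 9.03e-11). In the other direction talin 1, Tln1, which couples integrins to actin, measured 79.2, 79.9 and 79.4 and 50.5, 51.8 and 49.9 FPKM (-0.64), and calponin 2, Cnn2, 180.2 ± 4.86 and 104 ± 3.32 (-0.79). The 2 lines did not overlap for any of these genes. With the median of chromosome 4 removed the change of Tln1 was -0.31.

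Of 24 genes of insulin and IGF signalling 6 were higher and 12 lower (median -0.069). The mannose 6-phosphate receptor Igf2r, which clears IGF2, measured 50.4, 50.1 and 50.8 FPKM in LLC1 and 31.9, 31.9 and 32 in SCC1 (-0.64, limma adjusted p = 2.77e-10), while SCC2 held 49.8 ± 0.992. Igfbp7, an IGF-binding protein that passed the filter through LLC1 alone, went from 4.45, 4.99 and 5.06 FPKM to 0.51, 0.356 and 0.676. Both falls left SCC1 apart from the other lines, with SCC2 at 4.99 ± 0.307 FPKM for Igfbp7. Enzymes that build surface sugars were mixed, with 13 of 44 galactosyl-, sialyl- and fucosyltransferases higher and 18 lower (median -0.030), and 8 and 11 of 23 heparan and chondroitin sulfate enzymes (median -0.056). The fucosyltransferase Fut4, which makes the Lewis x epitope, passed the filter through LLC1 alone and is not in these counts. It measured 3.96, 3.98 and 3.99 FPKM in LLC1 and 0.365, 0.603 and 0.552 in SCC1. The sialyltransferase St3gal1 rose from 42.3 ± 0.449 to 62.2 ± 0.24 FPKM (0.55) and stood at 18.7 ± 0.171 in SCC2, with no overlap between any 2 lines.

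**Figure D3:**
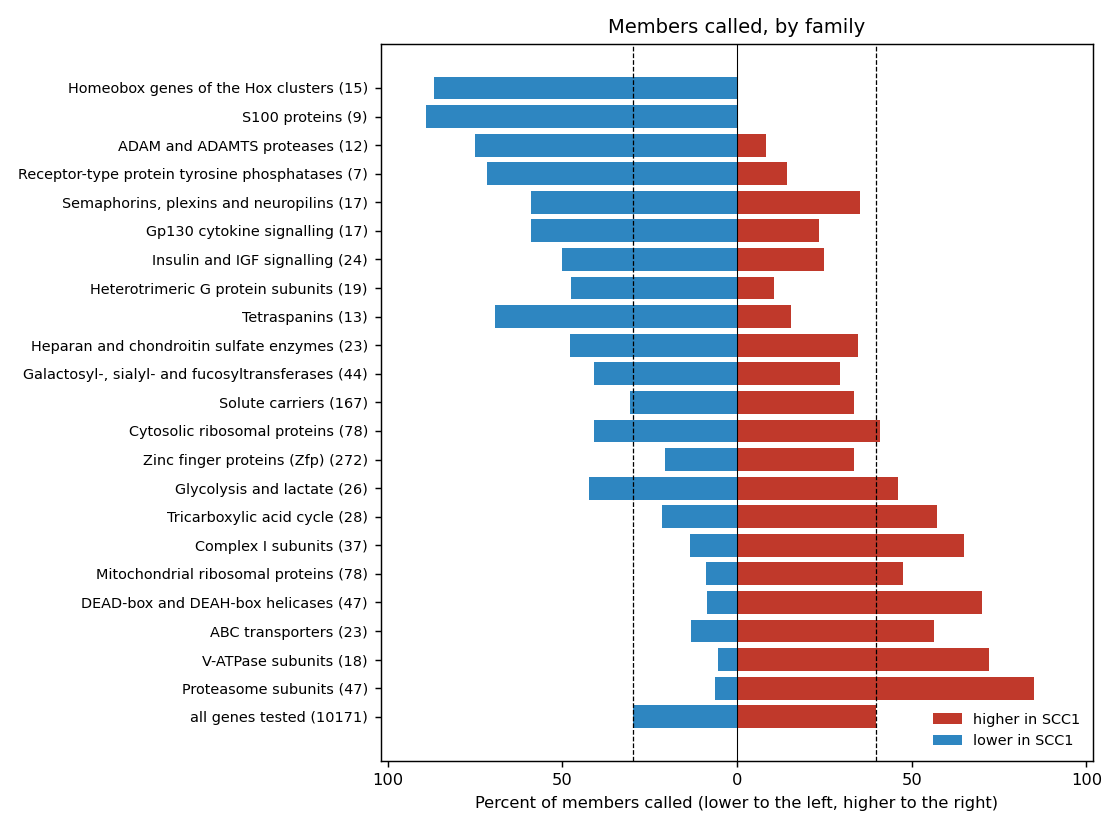
Percent of members called higher (red, to the right) and lower (blue, to the left) in SCC1 for 22 families and lists and for all tested genes, counting genes expressed in both lines (number in brackets), with dashed lines at the shares over all genes, 39.8% and 29.8%. Hox and S100 genes have no higher member, and proteasome subunits are 85.1% higher.

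Id3, a dominant-negative partner of helix-loop-helix factors, measured 128, 123 and 125 FPKM in LLC1 and 55.2, 58.5 and 58.7 in SCC1, without overlap (-1.11, limma adjusted p = 1.89e-11), and it lies on chromosome 4 (-0.78 with the chromosome median removed). Of the 10 helix-loop-helix repressors and Id genes 2 were higher and 6 lower (median -0.23). Fgf10, a fibroblast growth factor of lung branching, measured 3.36, 3.25 and 3.04 FPKM in LLC1, 1.08, 1.19 and 1.08 in SCC1 and 5.71, 5.78 and 5.89 in SCC2. SCC1 was the lowest line and SCC2 the highest (-0.99 against LLC1, limma adjusted p = 3.90e-09). Fgf11 fell from 14 ± 0.317 to 7.79 ± 0.273 FPKM (-0.77) and was lower again in SCC2 (3.43 ± 0.143).

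Of 17 dual-specificity phosphatases, which switch off MAP kinases, 9 were higher and 6 lower (median 0.15). Besides Dusp9, Dusp4 (17.5 ± 0.301 to 25.7 ± 0.887 FPKM, 0.53) and Dusp5 (19 ± 0.225 to 27 ± 0.894, 0.48) rose, whereas the ERK phosphatase Dusp6 fell (129 ± 0.875 to 91.6 ± 1.95, -0.49). Of 22 immediate early and AP-1 genes, which growth factors induce within minutes, 11 were higher and 7 lower (median 0.12). Egr1 measured 2.58, 2.47 and 2.24 FPKM in LLC1, 0.821, 0.807 and 0.908 in SCC1 and 2.46, 2.82 and 2.65 in SCC2, and it passed the filter through LLC1 alone, so it is not in that count. Myc, on chromosome 15, whose median change was 0.16, rose from 184 ± 4.26 to 237 ± 1.87 FPKM (0.36), and stood at 229.9 ± 5.19 in SCC2. Jun, on chromosome 4, fell from 68.2 ± 0.722 to 53.1 ± 0.616 FPKM (-0.35), a call that was lost with the chromosome median removed (-0.02, limma adjusted p = 0.287). Of 17 Notch pathway genes 6 were higher and 8 lower (median -0.061). The receptor Notch2 fell from 18.3 ± 0.241 to 12.8 ± 0.227 FPKM (-0.49), and nicastrin, Ncstn, a subunit of the secretase that releases the Notch intracellular domain, from 60.6 ± 0.713 to 47.3 ± 0.541 (-0.35). The Notch target Hes1 measured 2.1, 2.07 and 2.36 FPKM in LLC1 and 1.43, 0.965 and 0.569 in SCC1, low in all libraries yet without overlap (-0.70, limma adjusted p = 2.89e-04).

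Subunits of several large complexes leaned the other way. The proteasome, which degrades ubiquitin-tagged proteins, had 40 of 47 subunits and regulators higher and 3 lower (median 0.21). The changes were small, and those of single genes include any shift of their chromosome unless its removal is stated. The ATPase subunit Psmc5 measured 74.6, 77.7 and 77.4 FPKM in LLC1 and 98.9, 96.6 and 95.2 in SCC1 (log2 change 0.34, limma adjusted p = 8.03e-08), and the activator Psme4 24.2 ± 0.207 and 31.5 ± 0.797 (0.37). Both genes lie on chromosome 11, whose median change was 0.17. The largest rise was in the immunoproteasome subunit Psmb10 (5.87 ± 0.417 to 10.2 ± 0.188 FPKM, 0.70). The lower members were Psma6, Psmd8 and Psmb2, which lies on chromosome 4 and fell from 98.6 ± 1.69 to 76.6 ± 1.02 (-0.36). Psmb8, which passed through LLC1 alone, went from 1.19 ± 0.165 to 0.655 ± 0.0837 FPKM, and so had to be lower. With chromosome medians removed the family median was 0.12, with 30 of 48 higher and 4 lower, beside 29.9% higher and 30.7% lower over all genes under that setting (60.6% in either direction).

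The V-ATPase, the proton pump that acidifies lysosomes, had 13 of 18 subunits higher and 1 lower (median 0.23). The membrane subunit Atp6v0e2 measured 2.65, 2.52 and 2.64 FPKM in LLC1, 8.31, 7.99 and 7.81 in SCC1 and 0.663, 0.934 and 1.15 in SCC2, with SCC1 highest and no overlap (1.33, limma adjusted p = 2.75e-08). Atp6v1f rose from 84.4 ± 1.27 to 123 ± 5.44 FPKM (0.53) and Atp6v1c1 from 29.2 ± 0.309 to 39.2 ± 0.885 (0.41). The lower subunit, Atp6v1g1 on chromosome 4, fell from 72.1 ± 1.49 to 51.8 ± 0.564 FPKM (-0.47). Of 7 cathepsins, the lysosomal proteases, 6 were higher and 1 lower (median 0.20).

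In mitochondria, 24 of 37 genes that matched the symbol pattern of respiratory complex I were higher and 5 lower (median 0.14). Of 78 mitochondrial ribosomal proteins 37 were higher and 7 lower (0.11), and of 28 tricarboxylic acid cycle genes 16 were higher and 6 lower (0.13). Ndufb9, of complex I, measured 121, 122 and 119 FPKM in LLC1 and 158, 155 and 154 in SCC1, without overlap (0.37, limma adjusted p = 6.06e-09). It lies on chromosome 15, whose median change was 0.16. Ndufa4, which encodes a subunit of cytochrome c oxidase despite its symbol, measured 199 ± 13.3 and 256 ± 3.39 (0.37). The cycle enzyme Suclg1 rose from 65.4 ± 1.51 to 88.7 ± 1.85 FPKM (0.43), and cytosolic Idh1, on the same list, from 120.1 ± 2.19 to 158 ± 2.94 (0.40). Against this, pyruvate carboxylase, Pcx, which refills the cycle from pyruvate, measured 10.2, 10.4 and 10.4 FPKM in LLC1, 4.51, 4.32 and 4.17 in SCC1 and 10.1, 10.0 and 10.1 in SCC2. SCC1 lay far below both other lines (-1.08, SE 0.0337, limma adjusted p = 1.74e-10). Glycolysis and lactate genes were even, with 12 of 26 higher and 11 lower, and the sign of the median of all 27 tested members turned with quantile normalization (0.035 to -0.024) and with chromosome medians removed (-0.024). The glycolytic isomerase Gpi1 rose from 521 ± 6.13 to 649.9 ± 5.4 FPKM (0.32), opposite to Eno1.

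DEAD-box and DEAH-box helicases, which remodel RNA in splicing and ribosome assembly, had 33 of 47 members higher and 4 lower (median 0.16). Ddx27, a nucleolar helicase, measured 37.8, 40.3 and 38.7 FPKM in LLC1 and 53.6, 54.8 and 53.8 in SCC1, without overlap (0.46, limma adjusted p = 2.17e-08). The 4 lower members included Ddx58, the viral RNA sensor RIG-I (5.58 ± 0.264 to 3.71 ± 0.179 FPKM, -0.48). ABC transporters had 13 of 23 higher and 3 lower (median 0.15). The drug efflux pump Abcb1b measured 2.68, 2.77 and 2.7 FPKM in LLC1 and 5.94, 6.1 and 6.05 in SCC1 (0.92, limma adjusted p = 1.10e-08), and Abcc4, which exports cyclic nucleotides and prostaglandins, 7.99, 8.12 and 7.94 and 16.5, 16 and 15.7 (0.92, limma adjusted p = 6.22e-10). Both were about as high in SCC2 as in LLC1 (3.1 ± 0.249 and 7.65 ± 0.233 FPKM). The medians over all tested members of the proteasome, V-ATPase, complex I, mitochondrial ribosome, helicase and ABC families kept their sign with quantile normalization, median-of-ratios scaling and chromosome medians removed. So did those of the Hox, S100, gp130, ADAM, semaphorin, G protein and tetraspanin groups. These medians include members that passed the filter through 1 line alone and had to differ. They were 4 Hox genes, 2 each of the gp130 and semaphorin groups, and 1 each of the ADAM, tetraspanin and proteasome groups. Removing chromosome medians made the medians above 0 smaller. The proteasome went from 0.20 to 0.12, the V-ATPase from 0.23 to 0.15 and complex I from 0.14 to 0.085. Mitochondrial ribosomal proteins went from 0.11 to 0.089, helicases from 0.16 to 0.073 and ABC transporters from 0.15 to 0.080. The tricarboxylic acid cycle list went from 0.13 to 0.055, and all tested genes from 0.035 to -0.0014.

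TNF receptors and interferon-induced genes held single large rises. Of 10 TNF ligands and receptors 6 were higher and 1 lower (median 0.33). The death receptor Tnfrsf21 measured 5.42, 5.84 and 5.82 FPKM in LLC1 and 13.5, 14.2 and 14.4 in SCC1, and the neighbouring decoy receptors Tnfrsf23 4.41, 4.32 and 4.49 and 9.84, 10.1 and 10.3 and Tnfrsf22 9.04, 8.95 and 8.86 and 15.6, 15.6 and 15.6. All 3 were separated from LLC1 without overlap (1.17, 1.04 and 0.74) and none was raised in SCC2 (5.6 ± 0.288, 3.01 ± 0.269 and 7.07 ± 0.493 FPKM). Of 14 interferon-induced genes 7 were higher and 4 lower (median 0.088). The higher members included the membrane proteins that block virus entry, Ifitm1 (50.6, 52.6 and 51.9 FPKM to 132, 133 and 132, 1.34, limma adjusted p = 1.64e-12) and Ifitm3 (433 ± 4.6 to 708 ± 13.7, 0.71), and Ifi204 (0.56), whereas Ifitm2 went from 331 ± 15.6 to 305 ± 5.72 (-0.12). Ifitm and Tnfrsf22 and Tnfrsf23 are sets of close copies whose fragments may be split between them, so the value of each single copy is uncertain.

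Cytosolic ribosomal proteins divided evenly, with 32 of 78 higher and 32 lower (median 0.0027, and -0.015 with median-of-ratios scaling and -0.051 with chromosome medians removed). All 5 members on chromosome 4 were lower (median -0.51), as were 4 of 5 on chromosome 9 and 4 of 6 on chromosome 10, whereas 6 of 7 on chromosome 11 were higher (median 0.16). Of all tested genes, 82.7%, 67.8% and 68.0% were lower on chromosomes 4, 9 and 10, and 63.8% were higher on chromosome 11. Rps6, on chromosome 4, measured 849, 852 and 799 FPKM in LLC1 and 544, 512 and 527 in SCC1 (-0.66, limma adjusted p = 1.33e-09). Rpl22, on the same chromosome and chosen after its values were seen, measured 189, 189 and 187 and 131, 127 and 114 FPKM (-0.60). Its paralog Rpl22l1, on chromosome 3, moved the other way, from 141, 143 and 145 FPKM to 262, 276 and 266 (0.90, SE 0.0263, limma adjusted p = 1.04e-10), the largest change of the family. SCC2 lay between, at 168 ± 3.79 FPKM for Rpl22 and 162 ± 5.53 for Rpl22l1. Ribosomal protein genes have many processed copies, so single values are uncertain.

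Solute carriers were also even, with 56 of 167 higher and 51 lower (median 0.025, and -0.034 for all tested members with chromosome medians removed). The creatine transporter Slc6a8 rose from 23.1 ± 0.344 to 43.4 ± 1.53 FPKM (0.88, limma adjusted p = 6.22e-10), and the glycine transporter Slc6a9 fell from 17.7 ± 0.825 to 6.89 ± 0.399 (-1.25, limma adjusted p = 4.31e-10) and was higher in SCC2 (26.5 ± 0.68). On chromosome 4, 10 of 11 solute carriers were lower and 0 higher, and on chromosome 18, 7 of 7 were higher, beside 82.7% of all tested genes lower and 77.5% higher on those chromosomes. Zinc finger genes with Zfp symbols had 91 of 272 higher and 56 lower (median 0.063), with fewer calls in each direction than all genes. For the DNA methylation and Polycomb list, with 17 of 33 higher and 7 lower, the median of all tested members turned sign when chromosome medians were removed (0.081 to -0.052). Its members included the methyltransferase Ezh2 (18.2 ± 0.75 to 24.9 ± 0.689 FPKM, 0.43) and the histone-binding pair Rbbp7, higher (169 ± 4.27 to 225 ± 2.79), and Rbbp4, lower (62.1 ± 0.667 to 48.7 ± 0.196), which lie on chromosomes X and 4.

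Position on the genome went with direction over whole chromosomes. The median log2 change was 0.035 over all genes, and by chromosome (GRCm38 positions by gene name, 10340 genes) it ran from -0.33 on chromosome 4 to 0.22 on chromosome 18. On chromosome 4, 502 of 607 tested genes (82.7%) were lower and 37 higher. The medians of the SCC1 libraries there, as deviations from the LLC1 mean, were -0.332, -0.327 and -0.330, whereas the LLC1 libraries lay within 0.0031 of 0 and the SCC2 libraries at -0.0398, -0.0376 and -0.0405. The median of SCC1 was therefore far below both other lines. Chromosome 10 had 346 of 509 genes lower (median -0.19), with SCC1 libraries at -0.189, -0.195 and -0.189 and SCC2 libraries at 0.0872, 0.0954 and 0.0905. On chromosome 9, 393 of 580 were lower (median -0.19), with SCC1 libraries at -0.179, -0.181 and -0.193 and SCC2 libraries at -0.167, -0.152 and -0.173. SCC2 thus lay near LLC1 on chromosome 4, above it on chromosome 10, and with SCC1 below it on chromosome 9.

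Chromosomes 18, X, 11 and 15 were higher. On chromosome 18, 203 of 262 genes (77.5%) were higher and 24 lower, with SCC1 libraries at 0.223, 0.225 and 0.220 and SCC2 libraries at -0.220, -0.220 and -0.229, so the subclones stood on opposite sides of the parent. Chromosome 15 was similar, with SCC1 libraries at 0.168, 0.168 and 0.164 and SCC2 libraries at -0.259, -0.263 and -0.256. Chromosome 11 had 558 of 874 genes higher (median 0.17) and chromosome X 219 of 329 (0.17). The library medians of SCC1 and LLC1 did not overlap on 19 of 20 chromosomes (95%), all but chromosome 3, and the SD over SCC1 libraries was at most 0.0097. With 3 libraries against 3 an exact permutation test of one chromosome cannot give a p below 0.1. Chromosomes 4, 9 and 10 held 1696 of the tested genes (16.3%) and 1241 of the 3200 lower calls (38.8%). Chromosomes 11, 15, 18 and X held 1892 (18.2%) and 1244 of the 4124 higher calls (30.2%). Copy number was not measured here.

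**Figure D4:**
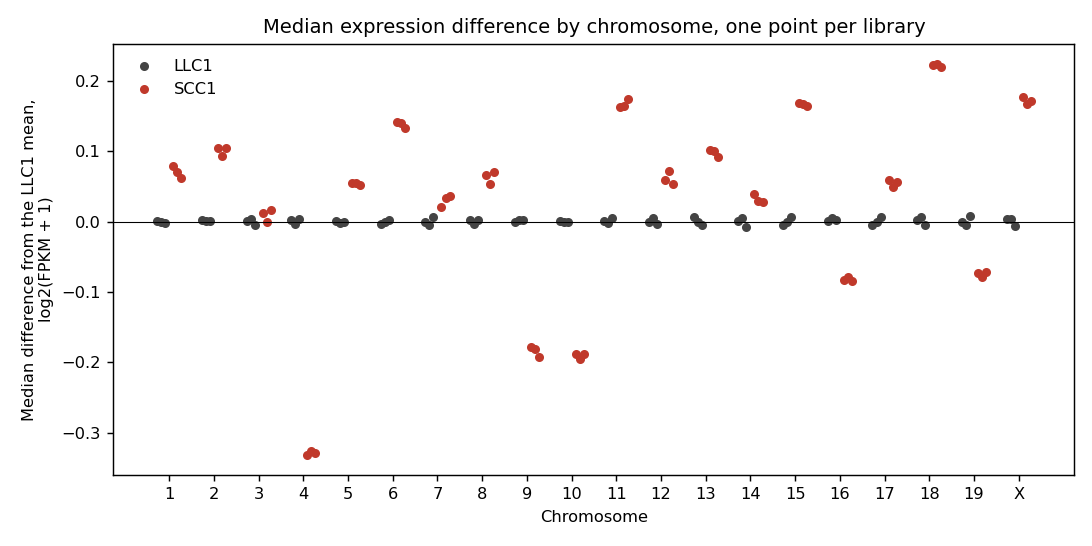
Median log2 deviation from the LLC1 mean for each chromosome (x axis), one point per library of LLC1 and SCC1, on the log2(FPKM + 1) scale (y axis). Libraries of one line sit close together, and SCC1 is lowest on chromosome 4, near -0.33, and highest on chromosome 18, near 0.22.

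Within chromosomes the shift was more even on some than on others. Tested genes with a mean of at least 5 FPKM in LLC1 or SCC1 were ordered by position and divided into windows of about 40. On chromosome 10 the 10 window medians lay between -0.23 and -0.13, and on chromosome 9 the 11 between -0.27 and -0.13. On chromosome 4 the first window, from Tgs1 to Smim8 (chr4:3574875-34778423), had a median of -0.12, with 10 genes higher and 22 lower. Window 3, from Fbxo10 to Fkbp15 (chr4:45034247-62360548), had -0.50, with 0 of 39 higher and 37 lower. On chromosome 12 the first 4 windows were slightly low (-0.040, -0.095, -0.056 and -0.039) and the last 3 high (0.24, 0.25 and 0.21). The change came between windows 4 and 5 and was not located more finely. In the 3 high windows 33, 36 and 33 of 41 genes were higher in SCC1, so the chromosome's median of 0.072 averaged a lower and a higher part. On chromosome 11 the first window was highest, at 0.30, and window 17 of 18 lowest, at 0.050, with 0.14 in the last.

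**Figure D5:**
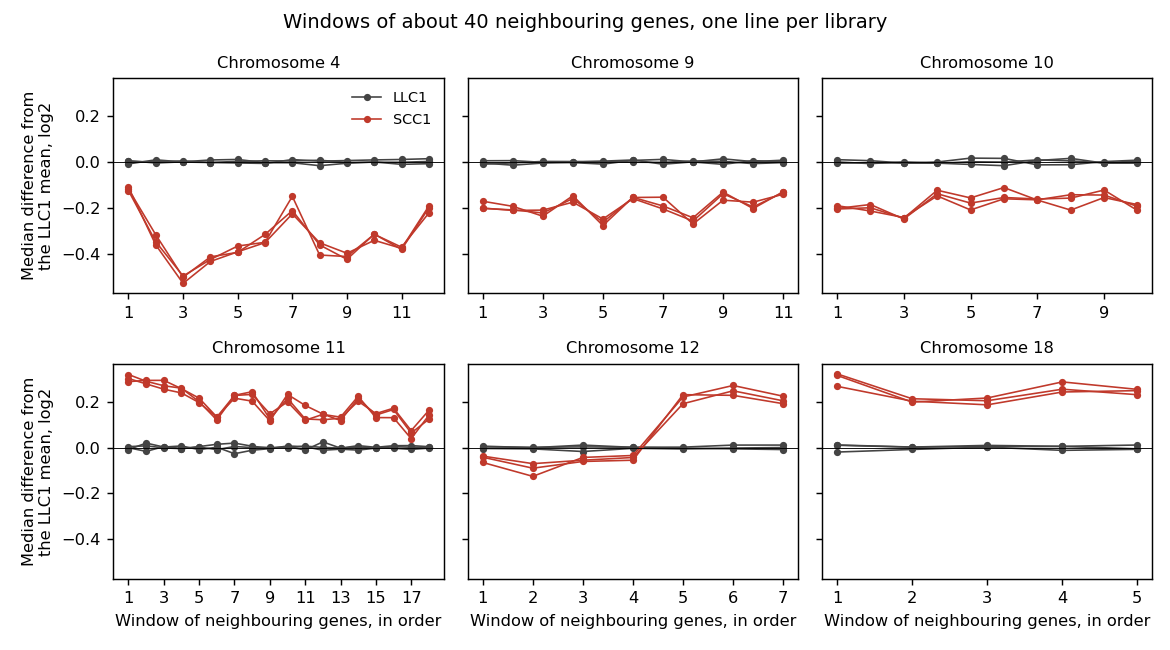
Median log2 difference from the LLC1 mean (y axis) in windows in order along chromosomes 4, 9, 10, 11, 12 and 18 (x axis), one line per library of LLC1 and SCC1. Each window holds about 40 neighbouring tested genes with a mean of at least 5 FPKM in LLC1 or SCC1. SCC1 dips to about -0.50 in window 3 of chromosome 4, and on chromosome 12 it steps from below 0 to about 0.24 after window 4.

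The genes with the largest changes lay on many chromosomes, with a larger share on the shifted ones than tested genes had. Of the 25 largest falls named by the rule 5 lie on chromosome 4, 4 on chromosome 9 and 0 on chromosome 10, and the other 16 elsewhere. Chromosomes 4, 9 and 10 held 16.3% of tested genes. Of the 25 largest rises 5 lie on chromosome 11, 3 on X, 1 on 15 and 1 on 18, beside 18.2% of tested genes on these 4 chromosomes. Removing the chromosome median left Slc16a3 at -2.32 and Lif at 1.41, on chromosome 11, and Plod1 at -1.86 and Ece1 at -1.23, on chromosome 4, with -2.15, 1.58, -2.19 and -1.56 before. Over all genes, 6315 passed with chromosome medians removed, 3119 higher and 3196 lower, against 4124 and 3200 without.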

How the data were processed

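Messenger RNA of 9 libraries, 3 each of LLC1, SCC1 and SCC2, was read as 1 table of FPKM values that the authors deposited, computed with cufflinks after HISAT2 alignment, per the series' design text. The builds GRCm38 and mm10 are named in the submitters' processing notes, and no source used here names tool versions or the gene annotation. The labels and the design text name different RNA and library kits, and which was used is not known.

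From these values log2(FPKM + 1) was computed for genes at 1 FPKM or more in at least 3 of the 6 LLC1 and SCC1 libraries. All 9 libraries entered 1 limma fit (limma 3.58.1, R 4.3.3, trend and robust settings), with Benjamini-Hochberg adjustment and a threshold of 0.05. FPKM has no depth of its own, but the values were multiples of whole fragments for all 12270 genes above 0 in all 9 libraries (within 0.001), which gave fragment counts. All 15768 genes were solved in the same way, including those at 0 in some libraries. A value of 3 fragments on a gene of median length is 0.0438 to 0.0497 FPKM, and such floors cover counting error only. FPKM scales with composition, so a change in the most abundant transcripts shifts the others. Positions came from GENCODE M21 by symbol (15198 by name, 214 by synonym, 356 without), and promoters from RefSeq. The fit was tested on simulated data before use.

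Genes were named by these rules: the 25 largest changes in each direction with no overlap and at least 5 FPKM, outside the matrix, p53 and NRF2 lists; up to 4 members of a group by adjusted p and 2 by change; the 8 largest FPKM differences in each direction, with the same lists left out; genes silent in one line; and markers. Bcl3, Gna13, Gnas, Hoxb7, Hoxb8, Hoxd3, Ifitm2, Il11, Il6ra, Psma6, Psmd8, S100a3, Socs3, Sox12, Sox13, Stat3 and plexins other than Plxna4 lie outside them and were chosen after their values were seen. The 3 lists left aside had 4 higher and 36 lower of 41 genes expressed in both lines (matrix), 23 and 5 of 31 (p53) and 19 and 8 of 36 (NRF2). Members, families and lists were chosen with earlier results of these data known. The comparisons with LLC1 and with SCC2 share the SCC1 libraries. Alternatives changed the pseudocount, filter, scaling, fit and libraries.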

Additional observations from a re-analysis of the deposited data

How the results depend on the processing

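Between 5930 genes (filter of 5 FPKM) and 8179 (no filter) passed the threshold in the alternatives that kept all LLC1 and SCC1 libraries, and 6834 to 6940 without 1 of those libraries, against 7324. Genes higher by 2-fold or more numbered 108 with a pseudocount of 0.1, 83 with quantile normalization and 110 with limma-voom on recovered fragments, against 52, and 51 to 57 without 1 library. Genes lower by 2-fold or more numbered 237, 123 and 271 under the same settings and 67 with a filter of 5 FPKM, against 146, and 143 to 152 without 1 library. A filter of 5 FPKM tests fewer genes, and a pseudocount of 0.1 shrinks low genes less; the cause of the other shifts was not tested. Calls between SCC1 and SCC2 ran from 6354 to 8850, against 7955, and could not be fitted with only the 6 LLC1 and SCC1 libraries. The library medians of SCC1 and LLC1 did not overlap on 17 to 20 chromosomes over the filters.

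With the replicate number as a block 7251 genes passed, and 52 and 146 by 2-fold. Same-numbered libraries deviated together with correlations of 0.064, -0.0070 and 0.14, so the numbers were not treated as pairing.

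Of 414 named or listed genes, 4 turned sign in 1 alternative each: Rps2 (-0.15) with quantile normalization, and Hnrnpr (0.0022), Kcnab2 (0.066) and Kif20a (-0.0074) with chromosome medians removed. Eef1a1 was at 0 with quantile normalization, which fixes the value of the top-ranked gene. Removing chromosome medians ended 15 calls and quantile normalization 2. Silent genes at a mean of 1 or 5 FPKM, given with the 16, were added after the data were seen. Depth sets a floor of a few fragments per library for silent genes, and Cadm1 and Ncam1 held more than that in SCC1.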

Other observations

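Of 11 MHC class I and related genes, which present antigen, 3 were higher in SCC1, 5 lower and 3 not called (median -0.068). The class I heavy chain H2-D1 measured 129, 128 and 133 FPKM in LLC1 and 94.8, 99.7 and 100.2 in SCC1, and Tap2, another of the lower members, which carries peptides into the endoplasmic reticulum, 18, 18.4 and 19 and 11.6, 11.5 and 13.2. Neither gene overlapped between the lines (log2 changes -0.40 and -0.58, limma adjusted p = 7.34e-08 and 6.84e-07). Class I heavy chains are close copies, so the value of each single gene is uncertain.

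Serpins, mostly inhibitors of serine proteases, parted. The collagen chaperone Serpinh1 fell from 347 ± 6.8 to 241 ± 0.79 FPKM (-0.52) and Serpinf1, an antiangiogenic factor, from 362 ± 9.88 to 276 ± 1.9 (-0.39), whereas Serpine2, which inhibits thrombin and urokinase, rose from 1.13 ± 0.0557 to 3.17 ± 0.192 (0.97) and measured 0.0782 ± 0.0259 in SCC2. Of 6 serpins expressed in both lines 3 were higher and 2 lower. Of 11 smooth muscle and myogenic genes 3 were higher and 7 lower (median -0.13). Among them the LIM protein Csrp1 fell from 38.1 ± 1.13 to 20.8 ± 0.7 FPKM (-0.84) and smoothelin, Smtn, rose from 31.8 ± 0.563 to 47.1 ± 1.24 (0.55). These groups were also chosen after their values were seen.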
